A study of Mus musculus with 4 samples.

Results

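The genes described here are the bicarbonate, anion and proton exchangers of the families Slc4a, Slc26a and Slc9a, together with the carbonic anhydrases, in the stria vascularis (SV) of the mouse cochlea. Members were every gene listed for both cells and nuclei whose symbol starts with Slc4a, Slc26a or Slc9a, or is Car followed by a number (with Car5a and Car5b). There were 49 of 27873 genes listed for both, of which 36 had at least 30 unique molecular identifiers (UMIs, the counts of captured transcripts) over the 4 libraries. The carbonic anhydrases held 16 members and the other 3 families 11 each. The prefix Slc9a also takes in Slc9a3r1 and Slc9a3r2, which are scaffolds that bind Slc9 exchangers, and Slc4a takes in Slc4a1ap, an adaptor. Neither kind carries ions.

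The tissue was in all samples SV from P30 (postnatal day 30) CBA/J mice, and the labels name no treatment or genotype. Single cell RNA-Seq (scRNA-Seq) was performed on 3 captures of cells and single nucleus RNA-Seq (snRNA-Seq) on 1 capture of nuclei, each from a suspension pooled from several mice (about 12 mice for cells and 10 for nuclei by the labels, whereas the methods of the study give other numbers). The capture, not the cell, was therefore the replicate, and the nuclei have none. After filtering, 377, 1314 and 1461 cells and 9723 nuclei were kept. Pairs of libraries shared between 0 and 32 barcodes.

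Cell types were named from marker genes, none of which is a member, and the members were kept out of the genes used for clustering. In cells this gave 125 marginal, 945 intermediate, 158 basal and 36 spindle/root cells, and in nuclei 2583, 1463, 680 and 208 of these types. Another 1750 cells and 3888 nuclei were left unnamed. Markers of each type had UMIs in that type of every library, except Tyrp1 and Pmel in intermediate cells (no UMI in 2 and 3 of the captures) and Slc1a3 in spindle/root cells of capture 3. Spindle/root cells numbered 4, 18 and 14 in captures 1, 2 and 3, and the sum of capture 1 was left out of the test because it had fewer than 5 cells. Per sum, SV types of the cell captures held between 66814 and 2588933 UMIs. The share of mitochondrial UMIs was 12.9% to 18.0% in spindle/root cells, 23.6% to 30.1% in marginal and basal cells and 32.2% to 37.5% in intermediate cells. Markers of intermediate cells summed to 20170 to 27820 CPM (UMIs in a sum, scaled to 1e6) in intermediate cells, to 5521 to 10150 CPM in marginal and basal cells and to 599 to 3624 CPM in spindle/root cells of the same captures. The part of such shared RNA in the levels below was not tested.

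Carbonic anhydrases convert carbon dioxide and water to bicarbonate and a proton, and back. Exchangers of the Slc4 and Slc26 families move bicarbonate, chloride and other anions across membranes, whereas Slc9 members exchange sodium or potassium for protons. In the cochlea this chemistry sets the pH of endolymph, the fluid that the SV keeps rich in potassium. Loss of pendrin, the product of Slc26a4, causes deafness with an enlarged vestibular aqueduct. Of the SV layers, marginal cells face endolymph, intermediate cells are melanocyte-like, basal cells seal the layer toward the spiral ligament, and spindle and root cells lie at its edges.

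Sequences before the RefSeq start site (250 bases, build GRCm38.p6, read 5′ to 3′ on the strand of the gene) are shown for Slc26a4, Car12 and Car14, the members with the highest log2 fold change in spindle/root, marginal and intermediate cells. Capitals mark matches, on either strand, to any of 7 motifs, namely the TATA box TATAAA, the box known as CCAAT, the GC box GGGCGG, the E-box CACGTG, the E-box of melanocyte factors CATGTG, the estrogen-related receptor motif AAGGTCA and the forkhead motif GTAAACA. No matches overlapped. The window of Slc26a4 lies at chr12:31559985-31560234 on the minus strand, that of Car12 at chr9:66713436-66713685 on the plus strand and that of Car14 at chr3:95904686-95904935 on the minus strand.
Slc26a4: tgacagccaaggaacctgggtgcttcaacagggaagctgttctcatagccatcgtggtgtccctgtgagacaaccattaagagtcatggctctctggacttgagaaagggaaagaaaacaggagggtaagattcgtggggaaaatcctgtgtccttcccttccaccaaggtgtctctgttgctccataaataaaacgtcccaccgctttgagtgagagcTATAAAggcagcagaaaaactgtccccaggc
Car12: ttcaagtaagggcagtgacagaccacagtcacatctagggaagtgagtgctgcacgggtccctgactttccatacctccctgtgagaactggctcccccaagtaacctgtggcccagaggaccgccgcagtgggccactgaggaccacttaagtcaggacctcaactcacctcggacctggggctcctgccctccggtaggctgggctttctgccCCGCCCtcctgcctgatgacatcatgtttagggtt
Car14: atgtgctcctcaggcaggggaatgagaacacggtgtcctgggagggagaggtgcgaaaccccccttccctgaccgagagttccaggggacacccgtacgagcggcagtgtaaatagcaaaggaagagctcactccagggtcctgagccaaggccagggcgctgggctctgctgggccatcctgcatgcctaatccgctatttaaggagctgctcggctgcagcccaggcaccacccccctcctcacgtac
The window of Slc26a4 held TATAAA in the sense direction, starting 31 bases before the start site, a motif found in 12.4% of the 32851 windows in the table. The window of Car12 held GGGCGG in the antisense direction, starting 35 bases before the start site (32.7% of windows). None of the 7 motifs was found in the window of Car14. CCAAT was found in 33.8%, CACGTG in 6.02%, CATGTG in 12.3%, AAGGTCA in 4.08% and GTAAACA in 3.17% of all windows. Promoters of 34 of the 49 members were in the table. Slc9a2, with the highest log2 fold change in basal cells, had no entry.

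For the cells, edgeR was used over 7079 genes to set each SV type against the average of the remaining 3, with the capture as a block, and p-values were adjusted over all of them by the Benjamini-Hochberg method. The filter on low counts left 16 members. A gene can pass that filter through the type where it is high. The counts and p-values that follow therefore describe the members and are no support for a trend among them. In marginal cells 3 members were higher, beside 14.6% of all genes tested, and 1 was lower (11.3% of all genes). In intermediate cells 5 were higher (18.2%) and 8 lower (19.3%). Basal cells had 3 higher (15.9%) and 4 lower (10.2%), and spindle/root cells 8 higher (11.5%) and 3 lower (6.09%). The median log2 fold change of the 16 members was 0.62 in spindle/root cells against -0.03 over all genes, and -0.60 in intermediate cells against -0.01. In marginal cells it was -0.23 against -0.0015, and in basal cells -0.025 against 0.0023. Each type is part of the average that the others are set against, so the calls and medians of the types are not independent. A gene high in 1 type alone is thereby set lower in the others. Of the 35 calls, 18 held under every alternative and 15 changed under at least 1. The 2 calls of Slc9a4 had no value under some. Clustering without doublet removal or with 20 principal components named only 17 and 19 spindle/root cells, and ended or turned several of the 15 calls.

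**Figure D1:**
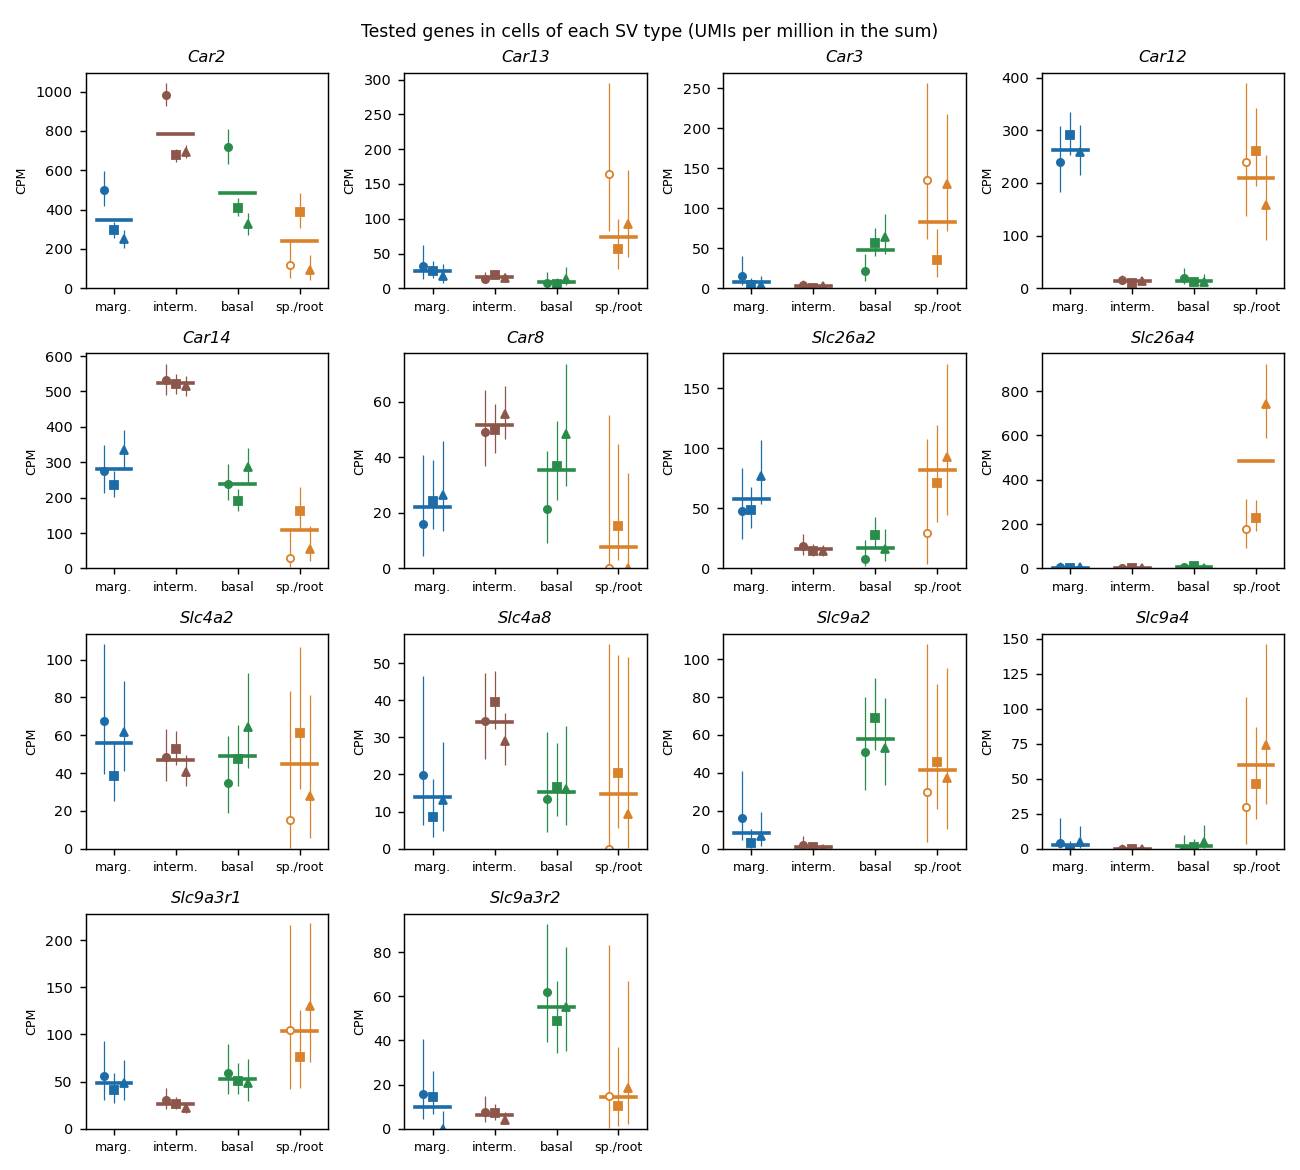
Level (CPM, linear axis from 0) of 14 of the 16 tested members in cells of the 4 SV types. Circles, squares and triangles are captures 1, 2 and 3 with exact 95% Poisson intervals, the open symbol marks the sum of 4 cells left out of the test, and bars are means over the captures tested. Car14 stands above 500 CPM in all 3 sums of intermediate cells and below 340 CPM in all other sums.

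Of the membrane-bound carbonic anhydrases, whose active site faces outward, Car12 was high in marginal and spindle/root cells. Its level in marginal cells was 239, 292 and 259 CPM in captures 1, 2 and 3, and in spindle/root cells it was 240, 260 and 158 CPM. Intermediate and basal cells ranged from 10.8 to 18.8 CPM, so that these 2 pairs of types did not overlap in any capture. The log2 fold change was 2.90 ± 0.15 (SE) in marginal cells (adjusted p = 3.85e-22) and 2.35 ± 0.25 in spindle/root cells (adjusted p = 1.25e-10). Nuclei gave a similar order, with 585 CPM (95% Poisson interval 562 to 608) in marginal nuclei and 315 CPM (259 to 378) in spindle/root nuclei, against 122 CPM in basal and 25.5 CPM in intermediate nuclei. In basal nuclei, markers of marginal cells summed to 2709 CPM and those of intermediate cells to 5250 CPM, beside 1482 CPM for their own markers, and the part of such RNA in the levels of basal nuclei was not tested. A Car12 UMI was found in 54.3% of marginal nuclei at a median depth of 1391 UMIs, and in 4.10% of intermediate nuclei at a median of 1421.

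Car14, also a transmembrane enzyme, was highest in intermediate cells. Its level there was 533, 520 and 515 CPM in the 3 captures, against 236 to 334 CPM in marginal and 190 to 285 CPM in basal cells. Spindle/root cells were lowest, with 163 and 55.7 CPM in captures 2 and 3. edgeR gave a log2 fold change of 1.68 ± 0.13 in intermediate cells (adjusted p = 4.95e-15) and -1.63 ± 0.26 in spindle/root cells (adjusted p = 2.31e-06). Intermediate nuclei stood at 573 CPM (543 to 604), marginal nuclei at 294 CPM (278 to 310), basal nuclei at 195 CPM and spindle/root nuclei at 184 CPM. In the nuclei, markers of intermediate cells summed to 35590 CPM in intermediate nuclei and to 1703 CPM in marginal nuclei, and their part in the level of Car14 was not tested. The gene Aph1a overlaps Car14 on the other strand.

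The genes of 4 cytosolic enzymes lie side by side on mm10 chromosome 3, at chr3:14641727-14663002 (Car13, plus strand), chr3:14766216-14808368 (Car1, minus), chr3:14863512-14872523 (Car3, plus) and chr3:14886273-14900770 (Car2, plus). Their levels did not follow 1 order of the types. Among them, Car2, the fast and widespread form, was also highest in intermediate cells, at 982, 676 and 693 CPM. Basal cells had 718, 409 and 324 CPM and marginal cells 502, 296 and 248 CPM, and capture 1 was the highest of the 3 in each of these types. Spindle/root cells of captures 2 and 3 averaged 240.1 ± 208.3 CPM of Car2 (SD, n = 2). In intermediate cells its log2 fold change was 1.41 ± 0.15 (adjusted p = 2.78e-08). Values of -0.64 ± 0.17 in marginal cells (adjusted p = 0.00722) and -0.92 ± 0.25 in spindle/root cells (adjusted p = 0.0115) depended on single captures, with an adjusted p of 0.755 in marginal cells without capture 2 and of 0.256 in spindle/root cells without capture 3. Without the capture as a block they had an adjusted p of 0.37 and 0.199, and without doublet removal that of marginal cells was 0.165. Without scaling of the sums by TMM, that of spindle/root cells was 0.0765. At resolution 1.2, which named 338 marginal cells instead of 125, that of marginal cells was 0.366. It was 0.0964 with 20 principal components and 0.122 with sums of at least 4 cells. Marginal nuclei had 57.7 CPM (50.8 to 65.3) and intermediate nuclei 509 CPM (481 to 538), with basal nuclei at 148 CPM and spindle/root nuclei at 142 CPM.

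Car3, a cytosolic form of low activity, was found in basal and spindle/root cells. Basal cells had 21.5, 56.3 and 64.4 CPM and spindle/root cells 35.7 and 130 CPM in captures 2 and 3, while marginal and intermediate cells stayed between 0 and 15.9 CPM. Its log2 fold change was 2.46 ± 0.44 in basal cells (adjusted p = 0.000241) and 2.68 ± 0.67 in spindle/root cells (adjusted p = 0.00795), the latter with an adjusted p of 0.127 without capture 3. Fibrocytes, cells of the spiral ligament found in small numbers, held far more, with 1286 and 1472 CPM in 5 and 4 cells of captures 2 and 3 and 3816 CPM (239 UMIs) in 28 nuclei. Markers of fibrocytes summed to 739 to 1482 CPM in spindle/root cells, to 297 to 418 CPM in basal cells and to 30.6 to 151 CPM in the other SV types of the cell captures. The sum of 1482 CPM, in capture 1, held UMIs of Otos, Lum and Cdo1 and none of Coch, Dcn, Col1a2, Col3a1 or Tbx18. In spindle/root cells of captures 2 and 3, 6 and 8 of the 8 fibrocyte markers had UMIs. Lum, one of these markers, was among the leading genes of the Epyc-led spindle/root clusters described below. The part of fibrocyte RNA in these sums and in the levels of Car3 was not tested.

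Car13, another cytosolic form, was raised in spindle/root cells, at 56.1 and 92.8 CPM against 6.39 to 31.9 CPM in all sums of the other types. This was a log2 fold change of 1.90 ± 0.43 (adjusted p = 0.000775), with an adjusted p of 0.0628 without capture 3 and of 0.075 without doublet removal. Basal cells had 6.39 to 13.8 CPM and were lower than the average of the other types (log2 fold change -1.69 ± 0.39, adjusted p = 0.000557). The nuclei gave 89.1 CPM (60.9 to 126) in the spindle/root type and 14.7 to 26.7 CPM in the other 3.

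Carbonic anhydrase-related proteins keep the fold of the family but lack enzyme activity. One of them, Car8, was higher in intermediate cells, at 49.2, 49.8 and 55.6 CPM, than in marginal cells, at 15.9, 24.3 and 26.4 CPM. Basal cells ranged from 21.5 to 48.3 CPM. In intermediate cells the log2 fold change was 1.65 ± 0.25 (adjusted p = 1.45e-07). That in spindle/root cells, -2.13 ± 0.66 (adjusted p = 0.0153), rested on 3 UMIs and had an adjusted p of 0.279 without capture 3 and of 0.0916 in DESeq2. Intermediate nuclei held 85.9 CPM (74.7 to 98.3) and no other SV type more than 5.2 CPM. Car10 had only 4 UMIs in all named and unnamed cells but 64.0 CPM (40.6 to 96.1) in spindle/root nuclei, against 4.1 to 6.9 CPM in the other SV types. Car11 stood at 35.6 CPM (28.6 to 43.9) in intermediate nuclei and at 8.4 to 17.0 CPM in the others. In cells its level averaged 12.9 ± 3.5 CPM (SD, n = 3) in intermediate, 10.7 ± 8.0 CPM in marginal and 5.6 ± 3.0 CPM in basal cells. Marginal cells had the highest level of Car11 in capture 1. The mitochondrial enzymes Car5a and Car5b, and Car7, had at most 18.6 CPM in every SV type of cells and nuclei.

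**Figure D2:**
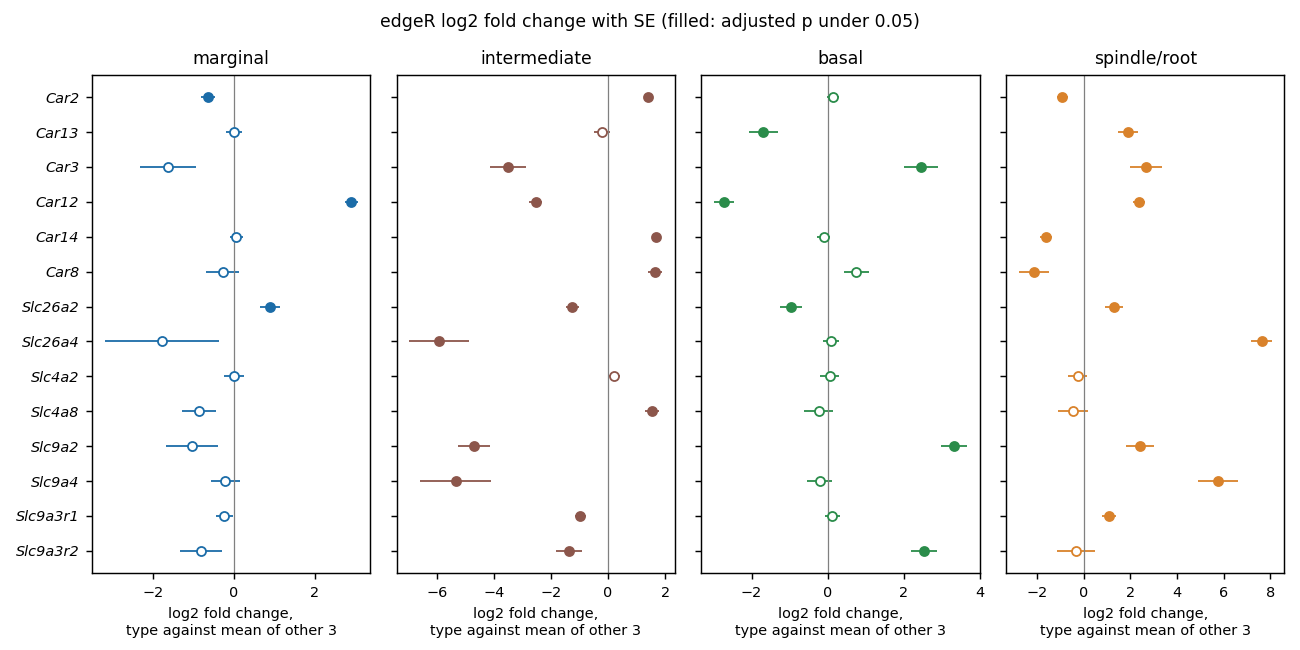
Log2 fold change of the same 14 members in a type against the mean of the other 3 SV types, from edgeR, with a standard error derived from the test statistic. Filled points have an adjusted p under 0.05. Slc26a4 in spindle/root cells has the highest value of the panels, 7.62, and Slc4a2 has no filled point.

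Among the Slc26 anion exchangers, Slc26a4 separated spindle/root cells from all other SV types. It held 12 UMIs in 4 cells of capture 1, 45 UMIs in 18 cells of capture 2 and 80 UMIs in 14 cells of capture 3, or 180, 229 and 743 CPM. All other sums of SV types had 0 to 9 UMIs and at most 11.5 CPM. The log2 fold change was 7.62 ± 0.44 (adjusted p = 2.92e-12). Slc26a4 passed the filter on low counts only through spindle/root cells, so this p-value is no separate support. Intermediate cells had 1 UMI among 945 cells, so that the pooled level in spindle/root cells was 2259 times theirs, with a counting interval from 399 to 89870. In spindle/root nuclei it was 557 CPM (482 to 640), with a UMI in 37.5% of nuclei at a median depth of 1494.5 UMIs, against 0.581% of marginal nuclei at a median of 1391. Reissner's membrane nuclei, from the epithelium that faces the SV across the endolymph, had 104 CPM from 14 UMIs in 94 nuclei.

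Slc26a2, a sulfate transporter, was higher in marginal cells (47.8, 48.6 and 76.9 CPM) than in intermediate cells (14.3 to 18.6 CPM) and basal cells (8.06 to 28.1 CPM). Spindle/root cells had 71.4 and 92.8 CPM in captures 2 and 3. In edgeR the log2 fold change was 0.90 ± 0.24 in marginal cells (adjusted p = 0.00349), 1.31 ± 0.38 in spindle/root cells (adjusted p = 0.0106), -0.96 ± 0.30 in basal cells (adjusted p = 0.0114) and -1.25 ± 0.24 in intermediate cells (adjusted p = 1.73e-05). Without capture 3 the first 3 had an adjusted p of 0.123, 0.119 and 0.108, and without capture 2 that of spindle/root cells was 0.0541. Without capture 1 that of basal cells was 0.106. In spindle/root cells the adjusted p was 0.261 with members allowed among the variable genes, with 17 and 15 cells named in captures 2 and 3. At resolution 0.4 it was 0.108, with 16 and 12 cells named. Without doublet removal the log2 fold change turned to -7.42 in spindle/root, 1.63 in intermediate and 1.94 in basal cells, with an adjusted p of 0.0879, 0.538 and 0.39. That setting named 9 and 6 spindle/root cells in captures 2 and 3, instead of 18 and 14. It named 958 intermediate and 159 basal cells, instead of 945 and 158. The values of these 2 types are set against an average that includes spindle/root cells. In the Epyc-led cluster of spindle/root cells, described below, Slc26a2 had no UMI. Marginal nuclei had 174 UMIs (34.3 to 46.4 CPM) and spindle/root nuclei 27.8 CPM (13.3 to 51.2), above 8.1 CPM in intermediate and 6.0 CPM in basal nuclei.

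Slc26a7, an anion exchanger of epithelia, was nearly absent from SV types, where it had at most 6.9 CPM in nuclei and at most 14 UMIs per type in cells. In contrast, Reissner's membrane nuclei held 183 UMIs, or 1357 CPM, in 94 nuclei. No member was used to form or name that cluster. Slc26a6, Slc26a8 and Slc26a11 had at most 19.5 CPM in all SV types of both assays.

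**Figure D3:**
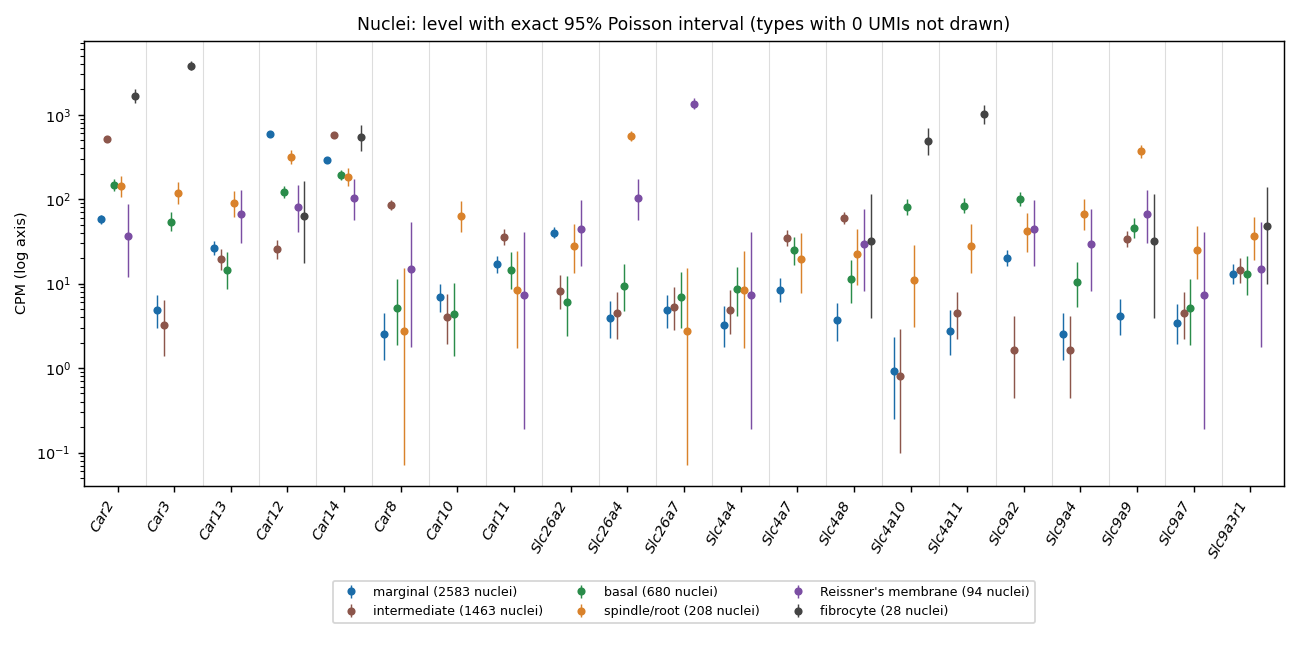
Level (CPM, log axis) of 21 members in nuclei of the 4 SV types, Reissner's membrane and fibrocytes, with exact 95% Poisson intervals that cover counting error only. Types without a UMI are not drawn. Slc26a7 is highest in Reissner's membrane (1357 CPM), Car3 and Slc4a11 in fibrocytes (3816 and 1006 CPM), and Slc26a4 and Slc9a9 in spindle/root nuclei (557 and 367.5 CPM).

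In the Slc4 family, Slc4a2, the widespread chloride and bicarbonate exchanger, was the member tested that differed in no type. Its level averaged 56.0 ± 15.3 CPM (SD, n = 3) in marginal, 47.1 ± 6.1 CPM in intermediate, 48.9 ± 14.8 CPM in basal and 44.5 ± 23.6 CPM (n = 2) in spindle/root cells. Its log2 fold changes lay between -0.27 ± 0.40 and 0.22 ± 0.20, and the nuclei ranged from 38.1 to 53.6 CPM. A p above the threshold does not show that the levels were equal.

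Slc4a8, a sodium-driven chloride and bicarbonate exchanger, was highest in intermediate cells, at 34.3, 39.4 and 29.0 CPM, against 8.58 to 19.9 CPM in marginal and 13.4 to 16.6 CPM in basal cells. Intermediate cells thus had a log2 fold change of 1.55 ± 0.25 (adjusted p = 1.16e-06). Slc4a8 passed the filter on low counts only through intermediate cells, so this p-value is no separate support. Intermediate nuclei had 59.96 CPM (50.7 to 70.4) and the other SV types 3.7 to 22.3 CPM. Slc4a7, a sodium bicarbonate cotransporter that did not pass the filter in cells, had 16.7, 18.1 and 20.0 CPM in intermediate cells, against 1.43 to 19.8 CPM in marginal and 5.12 to 10.8 CPM in basal cells. Among nuclei the intermediate type had the highest level (34.8 CPM, 27.9 to 43.0). Basal nuclei were close to it, at 25.0 CPM (16.8 to 35.9).

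Slc4a10 and Slc4a11, the first a sodium bicarbonate cotransporter and the second a relative mutated in corneal dystrophy with hearing loss, had their highest levels among named types in fibrocytes. Fibrocyte nuclei held 495 CPM of Slc4a10 and 1006 CPM of Slc4a11, and the 9 fibrocytes of captures 2 and 3 held 25 and 117 UMIs. Basal nuclei had 81.1 CPM (65.5 to 99.2) of Slc4a10 and 83.7 CPM (67.9 to 102) of Slc4a11. These UMIs came from 32 of 680 nuclei, 15 of which had both genes. Of those 32 nuclei, 30 (93.8%) had a UMI of a fibrocyte marker, and their fibrocyte markers summed to 4095 CPM. The other 648 basal nuclei had such a UMI in 43.5% and a sum of 499 CPM. Basal cells had no UMI of Slc4a10 and 2 of Slc4a11. This split of the basal nuclei was made after the values were seen, and the part of fibrocyte RNA in these levels was not tested. Slc4a3 and Slc4a4 had at most 27.9 CPM in every SV type.

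Among the Slc9 exchangers of the plasma membrane, Slc9a2, found in epithelia, was highest in basal cells. It stood at 51.1, 69.1 and 52.9 CPM there, at 45.9 and 37.1 CPM in spindle/root cells of captures 2 and 3, at 2.86 to 15.9 CPM in marginal cells and at no more than 1.86 CPM in intermediate cells. Its difference was 3.33 ± 0.34 on the log2 scale in basal cells (adjusted p = 9.26e-12). It was 2.40 ± 0.60 in spindle/root cells (adjusted p = 0.0024), with an adjusted p of 0.182 without capture 2 and of 0.472 without doublet removal. Basal nuclei had 100.1 CPM (82.7 to 120), spindle/root nuclei 41.8 CPM and intermediate nuclei 1.6 CPM. The level in basal nuclei was at least 2 times that of every other SV type, marginal nuclei included.

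Slc9a4, the neighbour of Slc9a2 on chromosome 1 and likewise an epithelial exchanger, was found almost only in spindle/root cells. They held 2, 9 and 8 UMIs in captures 1, 2 and 3, or 29.9, 45.9 and 74.3 CPM. No sum of another SV type had more than 2 UMIs, and intermediate cells had none, which puts spindle/root cells at least 104-fold higher, with a floor of 3 UMIs over all intermediate cells. The log2 fold change was 5.76 ± 0.85 (adjusted p = 4.52e-07). Slc9a4 passed the filter on low counts only through spindle/root cells, so this p-value is no separate support. Slc9a4 gave no value without capture 2, without capture 3, without doublet removal or with 20 principal components. Spindle/root nuclei had 66.8 CPM (42.8 to 99.4) and the others 1.6 to 10.4 CPM.

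Of the endosomal and Golgi members, Slc9a8 ranged from 36.1 to 52.9 CPM in the nuclei, with overlapping intervals in marginal, basal and spindle/root nuclei. Slc9a9, an endosomal exchanger that did not pass the filter in cells, stood apart. Spindle/root nuclei held 367.5 CPM (308 to 436), with a UMI in 27.9% of nuclei, against 45.7 CPM in basal, 33.6 CPM in intermediate and 4.1 CPM (a UMI in 0.697% of nuclei) in marginal nuclei. The cells gave 20.4 and 18.6 CPM in spindle/root cells of captures 2 and 3, from 4 and 2 UMIs, and 6.39 and 6.9 CPM in basal cells. Macrophages, 19 cells in all, held 10 of the 48 UMIs of Slc9a9 in cells. Slc9a7 had at most 25.1 CPM in SV types and 131 CPM in B cell nuclei.

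Scaffolds of the family went in different directions. Slc9a3r1 was higher in spindle/root cells, at 76.5 and 130 CPM, than in intermediate cells, at 22.1 to 30.6 CPM, with marginal and basal cells between 41.5 and 59.1 CPM. With edgeR the log2 fold change was 1.08 ± 0.32 (adjusted p = 0.0107) in spindle/root cells, with an adjusted p of 0.386 without capture 3 and of 0.11 without doublet removal, and -0.97 ± 0.18 (adjusted p = 1.78e-05) in intermediate cells. Slc9a3r2 was highest in basal cells, at 61.8, 48.6 and 55.2 CPM, and did not exceed 18.6 CPM in any other sum. Slc9a3r2 passed the filter on low counts only through basal cells, so its p-value there is no separate support. Its log2 fold change was 2.54 ± 0.34 in basal cells (adjusted p = 1.72e-08). That in intermediate cells, -1.37 ± 0.46 (adjusted p = 0.0144), had an adjusted p of 0.071 without capture 2 and of 0.0919 without capture 3, and turned to 0.79 without doublet removal. Basal nuclei had 16.4 CPM (9.87 to 25.6) of Slc9a3r2 and the other SV types 2.8 to 5.3 CPM. The adaptor Slc4a1ap stayed between 19.5 and 28.4 CPM in the nuclei.

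By the size rule set for the single nucleus library, a member was counted in a type with 10 UMIs or more if its CPM there was 2 times that of every other SV type or higher. In marginal nuclei 0 of 32 members with 10 UMIs were counted beside 5.79% of all genes. Intermediate nuclei had 4 of 29 (Car2, Car8, Car11 and Slc4a8, beside 5.04% of genes) and basal nuclei 4 of 24 (Slc4a10, Slc4a11, Slc9a2 and Slc9a3r2, beside 4% of genes). Spindle/root nuclei had 7 of 17, namely Car3, Car10, Car13, Slc26a4, Slc9a4, Slc9a9 and Slc9a3r1, beside 10% of genes. No test stands behind these counts, as there was 1 library.

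Spindle/root cells and nuclei each formed 2 clusters, one led by Cldn6 (with Anxa1 and P2rx2 in cells) and one by Epyc (with Lgr5 in nuclei). Slc26a4 was present in both. The Cldn6-led cluster had 290 CPM (75 UMIs in 21 cells) and 679 CPM (100 UMIs in 93 nuclei), and the Epyc-led cluster 555 CPM (62 UMIs in 15 cells) and 472 CPM (100 UMIs in 115 nuclei), so that the order of the clusters was opposite in the 2 assays. Car12 was higher in the Epyc-led cluster in both, at 403 against 150 CPM in cells and 481 against 74.7 CPM in nuclei. Car3 followed it, with 179 against 38.6 CPM in cells and 184 against 27.1 CPM in nuclei. Slc9a9 did as well, with 533 CPM (113 UMIs) against 129 CPM (19 UMIs) in nuclei and 53.7 CPM (6 UMIs) against 7.72 CPM (2 UMIs) in cells. Slc9a4 and Slc26a2 had the opposite order in both assays. Slc9a4 had 115 CPM (17 UMIs) in the Cldn6-led nuclei and 33.0 CPM (7 UMIs) in the Epyc-led nuclei, and 65.6 CPM (17 UMIs) against 17.9 CPM (2 UMIs) in cells. Slc26a2 had 47.5 CPM (7 UMIs) against 14.2 CPM (3 UMIs) in nuclei and 100.4 CPM (26 UMIs) against none in cells. These clusters come from few cells of 3 captures and 1 nucleus library, and the difference was not tested.

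**Figure D4:**
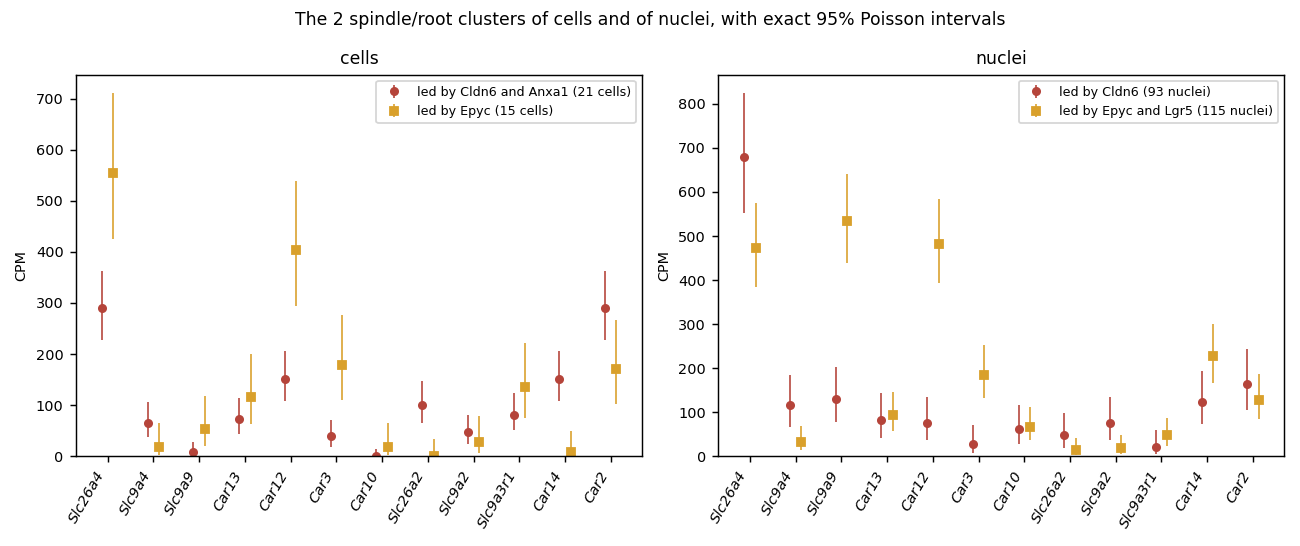
Level (CPM, linear axis from 0) of 12 members in the Cldn6-led (circles) and Epyc-led (squares) clusters of spindle/root cells, left, and nuclei, right, with exact 95% Poisson intervals. Car12 stands at 403 and 481 CPM in the Epyc-led clusters and at 150 and 74.7 CPM in the Cldn6-led clusters.

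Blood cells were treated apart. Car1, a carbonic anhydrase of red cells, and Slc4a1, their chloride and bicarbonate exchanger, lay almost only in erythroid cells in the cell captures. Of 239 UMIs of Car1 in kept cells, 237 lay in the 101 erythroid cells and 1 in all SV types. Of 430 UMIs of Slc4a1, 422 lay in erythroid cells and 5 in SV types. Erythroid cells, absent in capture 1, held 27.3 and 239 CPM of Car1, 1037 and 2242 CPM of Car2 and 130 and 413 CPM of Slc4a1 in captures 2 and 3. Globins and the other erythroid markers summed to 135 to 358 CPM in SV types of captures 1 and 2 and to 1716 to 1940 CPM in those of capture 3. Their part in the level of Car2 in SV types was not tested.

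In nuclei, the 486 erythroid nuclei had 1051 CPM of Car2, 219 CPM of Slc4a1 and 119 CPM of Car1. Car1 was also at 30.1 to 36.2 CPM in all 4 SV types, where Slc4a1 was at 5.3 to 7.8 CPM. Erythroid nuclei of the 2 clusters had 295 and 24 UMIs of Car1 beside 478 and 108 of Slc4a1. Marginal nuclei had 131 beside 26, and an unnamed cluster of 1047 barcodes had 228 beside 1. The median share of mitochondrial UMIs was 36.24% in that unnamed cluster, against 1.81% in the largest marginal cluster. The gene Gm16399 overlaps Car1 on the same strand. Of all Car1 UMIs in kept nuclei, 50.4% lay in unnamed barcodes and 26.4% in erythroid nuclei. Erythroid markers summed to 3447 to 7312 CPM in SV types of nuclei, and their part in the level of Car1 was not tested.

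**Figure D5:**
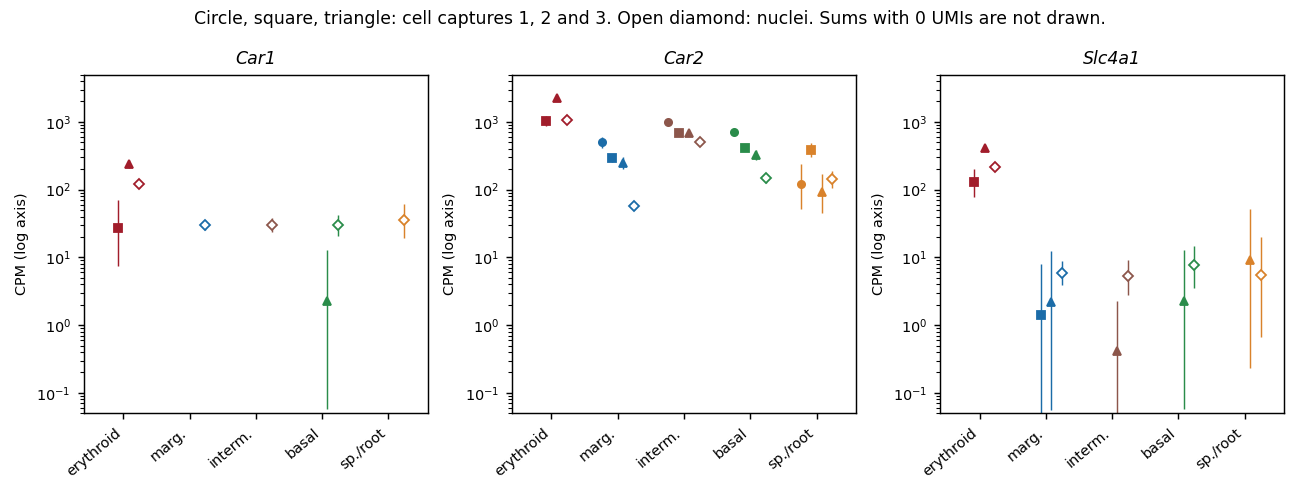
Level (CPM, log axis) of Car1, Car2 and Slc4a1 in erythroid cells and the 4 SV types, with exact 95% Poisson intervals. Filled symbols are cell captures, open diamonds are nuclei, and sums with 0 UMIs are not drawn. Car1 lies near 30 CPM in every SV type of nuclei and is drawn once among SV types of cells, for 1 UMI in basal cells.

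The 13 members under 30 UMIs were Slc26a1 (26 UMIs over the 4 libraries), Slc4a5 (18), Slc9a5 (17), Car6 (12), Car4 (10), Car9 (8), Slc26a5 (7), Car15 (5), Slc26a3 (5), Slc26a10 (1) and, with 0, Slc26a9, Slc4a9 and Slc9a3. Slc26a5 encodes prestin, the motor protein of outer hair cells. Slc9a3 encodes the exchanger of kidney and gut that gave the scaffolds Slc9a3r1 and Slc9a3r2 their names. A count of 0 allows up to 3 UMIs and does not show that a gene was absent.

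Of 36 further genes of acid and base handling, listed with earlier results of these data known, 12 passed the filter in cells. One of them, Esrrb, was a marker that named marginal cells and is left out of the counts. Of the other 11, in marginal cells 3 were higher (14.6% of all genes tested) and 6 lower (11.3%), and in intermediate cells 2 (18.2%) and 3 (19.3%). Basal cells had 2 higher (15.9%) and 2 lower (10.2%), and spindle/root cells 4 (11.5%) and 0 (6.09%). Tesc, which binds sodium and proton exchangers, was higher in marginal cells (log2 fold change 2.30 ± 0.14, adjusted p = 6.59e-20), as was Sgk1, a kinase that responds to steroids (2.98 ± 0.14, adjusted p = 2e-24). Sgk1 was also higher in spindle/root cells (1.605 ± 0.224, adjusted p = 1.16e-07). Hvcn1, the voltage-gated proton channel, was higher in intermediate cells (2.08 ± 0.19, adjusted p = 1.53e-13). Ahcyl2, which binds sodium bicarbonate cotransporters, was higher in basal cells (1.79 ± 0.15, adjusted p = 3.99e-15), and reached 1108 CPM in basal nuclei. Ptprz1, a phosphatase with a carbonic anhydrase-like domain, was higher in spindle/root cells (7.46 ± 0.65, adjusted p = 4.18e-13). It had 821 CPM in spindle/root nuclei and 912 CPM in Reissner's membrane nuclei. Genes of this list, unlike the members, were not kept out of the clustering, and Ptprz1 was among the leading genes of the Cldn6-led clusters. Ptprz1 also passed the filter on low counts only through spindle/root cells, so its p-value is no separate support. Foxi1, a regulator of pendrin in other epithelia, had no UMI in any named type of nuclei.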

How the data were processed

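The authors ran Cell Ranger 2.0.0 against mm10 (version and build per the labels) on 10x Genomics Chromium libraries. The deposited values are raw UMI counts per gene and barcode, 1 matrix for each capture. Gene lists held 27998 genes for cells and 48816 for nuclei, so CPM was scaled over different lists in the 2 assays. The effect of this on levels set side by side was not tested. Whether intronic reads were counted for nuclei is not given in the sources used here. Members, markers and gene lists were chosen with earlier results of these data known. Full values were given for members called higher in an SV type or with at least 50 CPM in one, and other members by range. Values of 2 members are not reported here, but the counts include them. Gene positions are from GENCODE on mm10, promoters from RefSeq.

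Only barcodes of 200 genes or more were kept, and Scrublet scores in scanpy 1.11.5 removed 0.8% of barcodes per 1000 in a capture (1, 15, 20 and 978). Median depth was 5054, 4938, 3878 and 1561 UMIs over all barcodes. Seurat 5.3.0 clustered cells and nuclei at resolution 0.8, with 39 and 41 principal components. Clusters were named from 113 markers of 16 classes. The naming rule, the sub-clustering of mixed clusters and a list of genes that bar a name were revised after the clusters had been seen.

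For each type with 5 or more cells in a capture the UMIs were added up, and the 11 sums were fitted in edgeR 4.0.16 (TMM, filterByExpr, robust quasi-likelihood test, capture as replicate block). The SE given with a log2 fold change is its absolute value divided by the square root of the F statistic of that test. A capture's sums come from 1 suspension of the same mice, which pairs them. Over 1244 genes, 11 of 15 pairs of sums had a correlation over 0.1 (range -0.101 to 0.438). On simulated sums over 6439 genes, for marginal cells against the other types, edgeR recovered 31 of 100 2-fold and 94 of 100 4-fold changes, with 6 false calls. DESeq2 1.42.0 recovered 27 and 89, with 1 false call. The simulated sums had 1 fixed dispersion and no capture effect. Changes were placed only in genes expected at 5 or more counts in each marginal sum, so the recovery need not hold for members with fewer. Intervals are exact Poisson, exact binomial for shares, and cover counting error only. With 3 pooled captures, and 2 for spindle/root cells, p-values measure how the differences between types vary across captures after the capture block. Alternatives were DESeq2, no filter, no TMM, no block, no mitochondrial genes, each capture left out, other clusterings and, chosen after seeing the data, sums of at least 4 cells.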

Additional observations from a re-analysis of the deposited data

How the results depend on the processing

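Of 136 recomputed counts of members, 114 stayed within 1.5 times the reported count and 22 did not. Members higher in marginal cells numbered 1 to 3 when each capture was left out in turn, lower 1 to 3. In intermediate cells they numbered 5 to 7 and 6 to 8, in basal cells 3 to 4 and 3 to 3, and in spindle/root cells 3 to 9 and 1 to 4, with the lowest counts of the last type without capture 3. Members lower in marginal cells numbered 2 with no filter, with members allowed among the variable genes, without doublet removal and with 20 principal components, and 0 with no replicate block and with sums of at least 4 cells. Without doublet removal, members lower in intermediate cells numbered 4, lower in basal cells 2 and higher in spindle/root cells 3, and with 20 principal components they numbered 4, 2 and 4. In nuclei, intermediate members numbered 2 at 3 times each other type and 1 at resolution 0.4 or with members allowed among the variable genes, while basal members numbered 0 under the last 2 settings, where only 44 basal nuclei were named. Without doublet removal and with 20 principal components the log2 fold change of Slc26a2 turned to 1.63 and 1.64 in intermediate cells, 1.94 and 1.89 in basal cells and -7.42 and -7.41 in spindle/root cells, and that of Slc9a3r2 in intermediate cells to 0.788 and 0.712. Slc9a4 gave no value under both, and 17 and 19 spindle/root cells were named. The cause was not tested. The replicate block changed no call but the 2 of Car2. No paired analysis was possible because nuclei came from a separate suspension, so cells and nuclei were not compared by a test.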

Other observations

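Some barcodes that the markers left unnamed held members at high levels. These clusters were chosen after their values were seen. A nuclear cluster of 23 barcodes, led by Slc47a1, Slc47a2, Penk and Sfrp4, had 2875 CPM of Slc4a10 (119 UMIs, 95% Poisson interval 2382 to 3440). It also had 556 CPM of Slc4a4 (23 UMIs), 266 CPM of Slc26a7 (11 UMIs) and 242 CPM of Slc26a2 (10 UMIs). Another cluster of 14 barcodes, led by the pituitary hormone genes Prl, Cga and Lhb among others, had 612 CPM of Car10 (27 UMIs) and 544 CPM of Slc4a10 (24 UMIs). A cluster of 85 nuclei led by Mpo, Elane, Ms4a6c and F13a1 had 198 CPM of Slc9a9 (54 UMIs, 149 to 258) and 198 CPM of Car1 (54 UMIs). All 3 clusters come from 1 library and were not tested.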
